A study of Mus musculus with 16 samples.

Results

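The genes described here make eicosanoids, the lipid mediators derived from arachidonic acid, or receive the signal of prostaglandin E2. They were Ptgs1, Ptgs2, Ptges, Pla2g4a, Alox5, Alox5ap, Ltc4s, Tbxas1, Ptger2 and Ptger4. The set was chosen by name, but with earlier results of these data known, so the choice was not blind to the values. Each gene was read from probe sets that the platform annotation ties to a single symbol, taking the probe set with the highest mean where a gene had several. By that rule 9 of the 10 genes were measured, among 22180 genes in all, and Ptgs1 was not analysed here. The cells were dendritic cells that had been differentiated from the marrow of C57/B6 males in GM-CSF (20 ng/ml) over 10 days and were then treated for 24 h. There were 4 groups of 4 arrays, namely cells given IMQ with PA, cells given IMQ, cells given PA, and mock-treated cells. PA, read here as the saturated fatty acid palmitic acid, was used at 0.5 mM bound to albumin at a molar ratio of 6 to 1. IMQ, read here as imiquimod, a ligand of the RNA sensor TLR7, is given as 3 uM in the design text and as 3 ug/ml in the protocol. The labels do not say whether mock cells received albumin. They call the replicates biological without naming the animals or cultures behind them, so the p-values cover only the array-to-array spread seen here.

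Eicosanoid synthesis starts when a phospholipase frees arachidonic acid from membrane phospholipids. Cyclooxygenases turn it into an unstable intermediate from which terminal synthases make prostaglandins or thromboxane, while 5-lipoxygenase and its partner protein turn it into leukotrienes. Prostaglandin E2 raises cyclic AMP through the receptors EP2 and EP4, and in dendritic cells it is known as a regulator of maturation, migration and cytokine release. Leukotrienes are known for attracting leukocytes and for guiding dendritic cell migration.

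Values are deposited log2 RMA intensities, so a difference of 1 is a 2-fold change, and levels are compared only within a gene. Correlations between arrays of the same group, taken across genes, lay between 0.994 and 0.996. Markers of conventional dendritic cells were above the dim level in every group for 8 of 9 measured genes (Xcr1 lay below it), and markers of macrophages and monocytes for 10 of 10. The dim level is 4.93, the 95th percentile of the means of 1443 sensory receptor genes that dendritic cells mostly leave silent. Of the lymphocyte markers, 0 of 5 reached it. Without IMQ the arrays were uneven for the cytokine gene Il6, which lay below the dim level on PA replicates 1 and 2 (4.12 and 4.0) and on mock replicate 4 (4.32). It lay far above that level on PA replicates 3 and 4 (7.43 and 8.22) and on mock replicates 1, 2 and 3 (7.57, 7.90 and 7.71). Calls of the genes described here that were lost without these 5 arrays with raised Il6 are given below with that value, which rests on 2 PA arrays and 1 mock array.

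**Figure D1:**
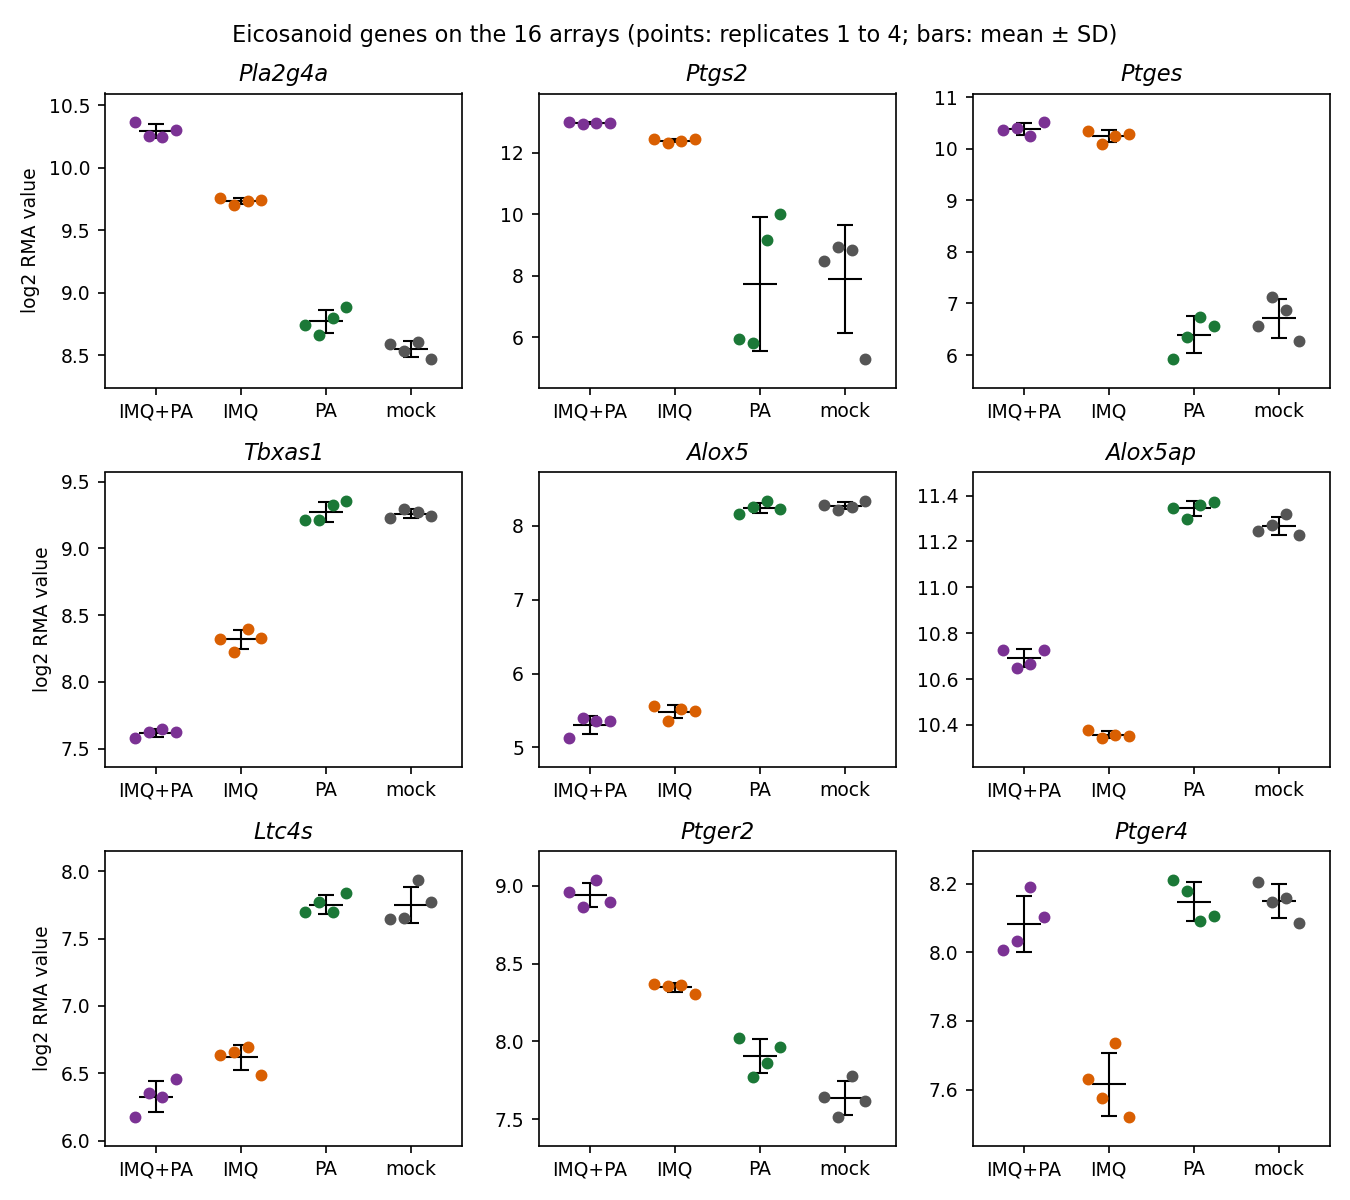
Log2 RMA value (vertical axes, 1 panel per gene with its own scale) of each measured gene on every array, with the groups IMQ+PA, IMQ, PA and mock along the horizontal axis, points for arrays and bars for the group mean ± SD. Ptgs2 spans 12.33 to 13.00 on arrays with IMQ and 5.30 to 10.02 on arrays without it, and the other genes lie closer together within each group.

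IMQ alone moved the genes in both directions. The inducible cyclooxygenase gene Ptgs2 rose 22.6-fold and the prostaglandin E synthase gene Ptges 11.6-fold, together with the phospholipase Pla2g4a and the receptor Ptger2. The genes of leukotriene synthesis, Alox5, Alox5ap and Ltc4s, fell, as did the thromboxane synthase Tbxas1 and the receptor Ptger4. All 9 genes passed limma's test against mock (p adjusted by Benjamini-Hochberg across all genes, under 0.05), 4 higher and 5 lower, where 34.8% of all genes passed, 17% higher and 17.9% lower. The median size of the change was 1.13 on the log2 scale over the 9 genes and 0.16 over all genes. All genes include the 1443 sensory receptor genes, most of them below the dim level, whereas 0 of the 9 were dim in all groups. This holds for every share and median of all genes given here. These are values of whole cultures, in which fewer cells of a type and less RNA per cell cannot be told apart.

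Pla2g4a encodes cytosolic phospholipase A2, which frees arachidonic acid. It read 9.76, 9.70, 9.73 and 9.74 on the IMQ arrays, against 8.59, 8.53, 8.60 and 8.47 on the mock arrays. Each IMQ array was above each mock array, and the arrays of both groups lay close together. The difference was 1.19 ± 0.05 (log2, standard error of the fit, n = 4 arrays per group, limma adjusted p = 2.51e-11), a 2.27-fold rise.

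Ptgs2 encodes the inducible cyclooxygenase. It read 12.43, 12.33, 12.37 and 12.45 on the IMQ arrays, against 8.49, 8.95, 8.84 and 5.30 on the mock arrays. The IMQ arrays were tightly grouped and all above the mock arrays, while mock replicate 4, the mock array with Il6 below the dim level, was far below the other mock arrays. The difference was 4.50 ± 0.88 (log2, limma adjusted p = 0.000659), with a 95% interval of 2.62 to 6.38. Without the 5 arrays with raised Il6, which also had the higher Ptgs2 values among arrays without IMQ, the difference was 7.10. It was then measured against mock replicate 4 only, whose spread is taken from the other groups. The size of the rise thus depended on which mock arrays it was set against, and the part of the raised Il6 arrays in it beyond that was not tested.

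Ptges encodes microsomal prostaglandin E synthase, the terminal enzyme usually coupled to the inducible cyclooxygenase. It read 10.35, 10.10, 10.25 and 10.30 on the IMQ arrays, against 6.57, 7.12, 6.87 and 6.27 on the mock arrays. The groups were far apart, and mock replicate 4 was again the lowest mock array, though by little. The difference was 3.54 ± 0.17 (log2, limma adjusted p = 9.14e-11).

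Alox5 encodes 5-lipoxygenase, the enzyme that starts leukotriene synthesis. It read 5.56, 5.36, 5.51 and 5.49 on the IMQ arrays, against 8.29, 8.22, 8.25 and 8.34 on the mock arrays. The IMQ arrays came down close to the dim level, where RMA values compress differences, and the mock arrays were well above it. The change was -2.79 ± 0.06 (log2, limma adjusted p = 3.72e-14), a 6.93-fold fall. The other probe set annotated to Alox5 had means of 6.08 with IMQ and 7.74 in mock cells and thus differed by -1.66 on the log2 scale, a smaller fall, with no test of its own.

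Alox5ap encodes the 5-lipoxygenase-activating protein, which presents arachidonic acid to the enzyme. It read 10.38, 10.34, 10.35 and 10.35 on the IMQ arrays, against 11.25, 11.27, 11.32 and 11.23 on the mock arrays. All IMQ arrays were below all mock arrays, yet the gene stayed bright. The change was -0.91 ± 0.04 (log2, limma adjusted p = 2.37e-11), and the other probe set of the gene differed by -0.60.

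Ltc4s encodes leukotriene C4 synthase, which joins the leukotriene intermediate to glutathione. It read 6.63, 6.66, 6.70 and 6.49 on the IMQ arrays, against 7.65, 7.65, 7.94 and 7.77 on the mock arrays. The groups did not overlap, and the change was -1.13 ± 0.08 (log2, limma adjusted p = 3.64e-09). Tbxas1, which encodes thromboxane synthase, acts after cyclooxygenase and fell, unlike Ptgs2 and Ptges. It read 8.32, 8.22, 8.39 and 8.33 on the IMQ arrays, against 9.23, 9.30, 9.27 and 9.24 on the mock arrays. Again each IMQ array was below each mock array, with a change of -0.94 ± 0.05 (log2, limma adjusted p = 1.63e-10).

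The receptors for prostaglandin E2 moved apart. Ptger2, which encodes EP2, read 8.37, 8.36, 8.37 and 8.30 on the IMQ arrays, against 7.64, 7.51, 7.78 and 7.62 on the mock arrays. Ptger4, which encodes EP4, read 7.63, 7.58, 7.74 and 7.52 on the IMQ arrays, against 8.21, 8.15, 8.16 and 8.08 on the mock arrays. EP2 was higher and EP4 lower on every IMQ array than on any mock array. The changes were 0.71 ± 0.06 for Ptger2 (limma adjusted p = 1.83e-07) and -0.53 ± 0.06 for Ptger4 (limma adjusted p = 1.11e-06), both on the log2 scale.

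**Figure D2:**
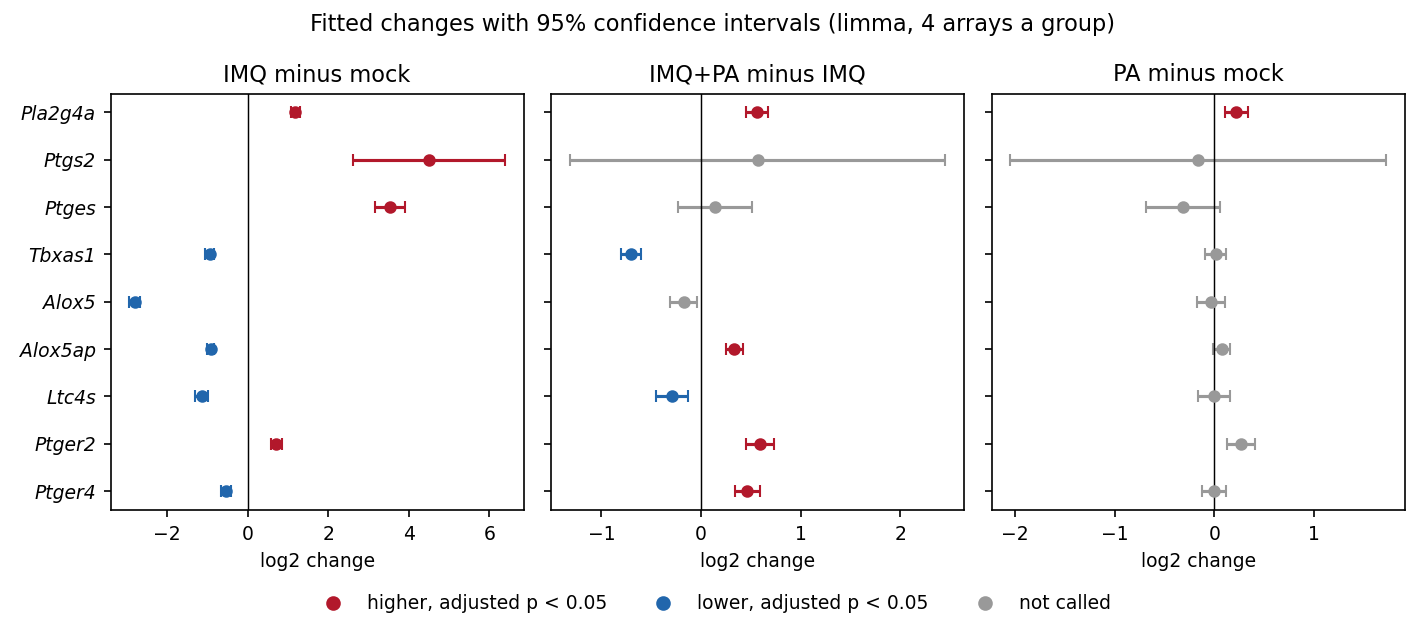
Fitted log2 change (horizontal axes, which differ between panels) of each measured gene for IMQ minus mock, IMQ+PA minus IMQ and PA minus mock, with bars for the 95% confidence interval, red and blue for genes called higher and lower, and grey for genes not called. Ptgs2 carries the widest intervals, 2.62 to 6.38 for IMQ minus mock, and Pla2g4a is the only gene coloured for PA minus mock.

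To set the genes that moved most beside the sequence around their starts, promoter windows from RefSeq (GRCm38.p6, 250 bases before the annotated start) were searched on both strands for 7 motifs. Windows were found for 9 of the 10 genes, 10 windows in all. The 4 shown are Ptgs2 and Ptges, which rose most with IMQ, Alox5, which fell most, and Tbxas1, whose fall with IMQ became larger with PA. Each is printed 5′ to 3′ on the gene's strand, with motif matches in capitals. Ptgs2 is on the plus strand at chr1:150099781-150100030, Ptges on the minus strand at chr2:30903298-30903547, Alox5 on the minus strand at chr6:116461179-116461428 and Tbxas1 on the plus strand at chr6:38918736-38918985.
Ptgs2: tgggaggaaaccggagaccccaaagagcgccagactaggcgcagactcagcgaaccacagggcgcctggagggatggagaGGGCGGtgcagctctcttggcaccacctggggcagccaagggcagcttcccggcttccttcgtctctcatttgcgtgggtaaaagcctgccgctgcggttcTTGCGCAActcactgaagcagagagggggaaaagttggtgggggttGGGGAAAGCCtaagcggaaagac
Ptges: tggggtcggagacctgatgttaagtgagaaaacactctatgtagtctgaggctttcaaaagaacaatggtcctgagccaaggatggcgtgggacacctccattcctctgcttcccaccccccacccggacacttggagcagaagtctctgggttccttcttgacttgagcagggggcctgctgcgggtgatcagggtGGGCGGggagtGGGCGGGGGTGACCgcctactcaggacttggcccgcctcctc
Alox5: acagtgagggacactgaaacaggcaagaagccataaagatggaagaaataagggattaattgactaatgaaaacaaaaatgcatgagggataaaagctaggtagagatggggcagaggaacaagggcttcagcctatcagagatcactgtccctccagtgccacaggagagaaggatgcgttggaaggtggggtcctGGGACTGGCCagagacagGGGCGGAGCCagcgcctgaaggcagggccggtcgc
Tbxas1: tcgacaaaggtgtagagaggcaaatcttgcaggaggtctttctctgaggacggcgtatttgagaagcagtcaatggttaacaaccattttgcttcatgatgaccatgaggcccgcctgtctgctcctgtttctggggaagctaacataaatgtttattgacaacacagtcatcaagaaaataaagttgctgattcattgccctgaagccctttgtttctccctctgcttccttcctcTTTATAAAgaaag
Positions count backwards from the start, where -1 is the last base before it. The NF-kB motif (GGG, any 5 bases, CC) matched in Ptgs2 (-23 to -14), in Ptges (-38 to -29) and in Alox5 at -53 to -44 and -35 to -26, and it is present in 45.8% of all 32851 promoter windows. Genes that rose and a gene that fell thus held the same loose motif. The C/EBP form TTNNGCAA, found in 9.56% of all windows, matched in Ptgs2 at -69 to -62 on both strands. The GC box GGGCGG, found in 32.7%, matched in Ptgs2 (-170 to -165), in Ptges (-53 to -48 and -42 to -37, the second overlapping the NF-kB match) and in Alox5 (-35 to -30, inside the NF-kB match). TATAAA, found in 12.4%, matched in Tbxas1 on the minus strand at -13 to -8 and on the plus strand at -11 to -6. The other motifs searched were TGACG (17.8% of all windows), TTGCNNCAA (1.74%) and CACGTG (6.02%), and these letters are not in the 4 windows shown. A match here is a description of letters, not of binding.

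Adding PA to IMQ moved the same pathway in both directions again. Pla2g4a, Alox5ap, Ptger2 and Ptger4 rose and Tbxas1 and Ltc4s fell relative to IMQ alone. That is 6 of the 9 genes called, 4 higher and 2 lower, where 21.1% of all genes were called, 11.6% higher and 9.44% lower. The median size of the change was 0.47 over the 9 genes and 0.12 over all genes, on the log2 scale.

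Pla2g4a read 10.37, 10.26, 10.24 and 10.30 on the arrays of IMQ with PA, all above the IMQ arrays given earlier. Its change was 0.56 ± 0.05 (log2, limma adjusted p = 8.04e-07). Ptger2 read 8.96, 8.87, 9.04 and 8.89 with both agents, also above every IMQ array, with a change of 0.59 ± 0.06 (log2, limma adjusted p = 4.80e-06). The phospholipase and EP2, both raised by IMQ, were thus higher again when PA was present.

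Ptger4 read 8.01, 8.03, 8.19 and 8.10 with both agents, above every IMQ array and within the range of mock or just under it. Its change relative to IMQ was 0.47 ± 0.06 (log2, limma adjusted p = 1.47e-05). Relative to mock, cells with both agents differed by -0.07 (95% interval -0.19 to 0.05, limma adjusted p = 0.422), which leaves the fall seen with IMQ alone undetected there. Alox5ap read 10.73, 10.65, 10.67 and 10.73 with both agents, between the IMQ and the mock arrays. Its change relative to IMQ was 0.33 ± 0.04 (log2, limma adjusted p = 1.15e-05), and it was still 0.58 lower than in mock cells. The other, dimmer probe set of Alox5ap differed from IMQ by only 0.07, with no test of its own.

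Tbxas1 read 7.58, 7.62, 7.64 and 7.62 with both agents, below every IMQ array. Its change relative to IMQ was -0.70 ± 0.05 (log2, limma adjusted p = 2.61e-08), a further 1.63-fold fall. Ltc4s read 6.17, 6.35, 6.33 and 6.45 with both agents, below every IMQ array by a narrow margin. Its change was -0.29 ± 0.08 (log2, limma adjusted p = 0.0100).

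Ptgs2 read 13.00, 12.93, 12.97 and 12.96 with both agents, above every IMQ array. In the fit of all 16 arrays the difference from IMQ of 0.57 ± 0.88 (log2) was not called (limma adjusted p = 0.715), with a standard error set by the spread of the arrays without IMQ. Fitted with only the 8 arrays of these 2 groups the same difference was called (limma adjusted p = 6.30e-05). Leaving out the 5 arrays with raised Il6 also brought a call, but these are the arrays without IMQ that had high Ptgs2. Their removal takes away that spread by choice and adds no separate support. An exact two-sided permutation test of IMQ with PA against IMQ gave p = 0.0286, the smallest that 4 arrays against 4 allow. Among all genes, 23.5% had no overlap between these groups. Ptges read 10.37, 10.40, 10.25 and 10.52 with both agents, overlapping the IMQ arrays (0.14 ± 0.17, limma adjusted p = 0.643). Alox5 read 5.12, 5.39, 5.35 and 5.36, also overlapping IMQ and near the dim level (-0.17 ± 0.06, limma adjusted p = 0.0698, but 0.0342 with dim genes left out and 0.0354 without IMQ replicate 2).

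PA alone gave few calls. Of the 9 genes, 1 was called against mock, where 1.49% of all genes were called, 1.05% higher and 0.442% lower. That gene was Pla2g4a, at 8.74, 8.67, 8.80 and 8.88 on the PA arrays, above every mock array (0.22 ± 0.05, log2, limma adjusted p = 0.0466). The call was borderline: it was lost without the 5 arrays with raised Il6, at 0.24 (limma adjusted p = 0.544), and when any of 14 of the 16 arrays was left out (adjusted p from 0.0523 to 0.145). Ptger2 read 8.02, 7.77, 7.86 and 7.96 on the PA arrays and overlapped mock by a single value (0.27 ± 0.06, limma adjusted p = 0.0546). Ptgs2 read 5.94, 5.81, 9.16 and 10.02 on the PA arrays, so that PA replicates 3 and 4, the PA arrays with raised Il6, were high and the others low. Its difference from mock was -0.16, with a 95% interval of -2.05 to 1.72, too wide to place an effect of PA. The other members differed from mock by -0.31 (Ptges) to 0.08 (Alox5ap) on the log2 scale, and 0 of them were called. Outside that range, the other probe set annotated to Alox5 differed by -0.35, with no test of its own, against -0.03 for the probe set used.

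**Figure D3:**
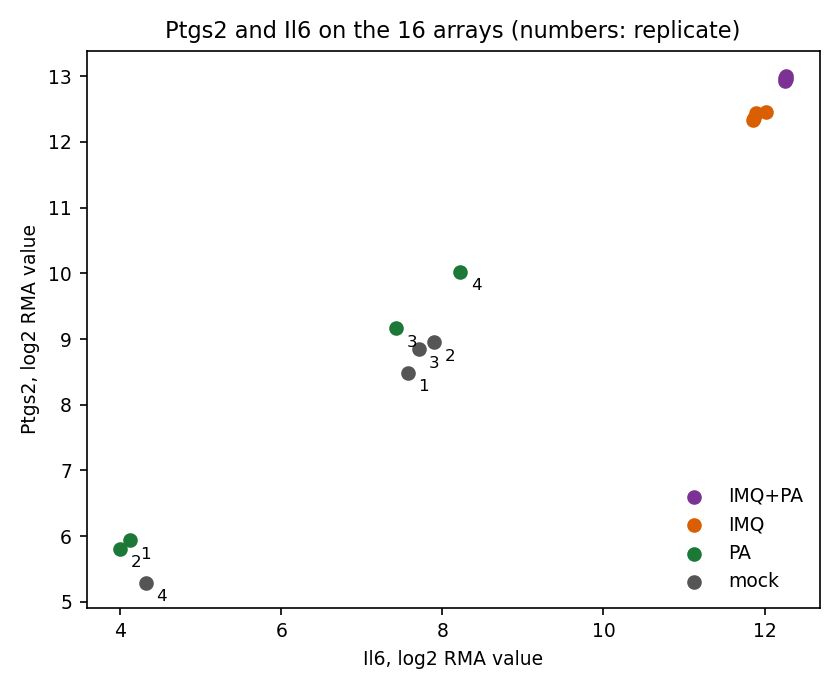
Log2 value of Ptgs2 against that of Il6 on each of the 16 arrays, with groups marked. The 3 arrays without IMQ that have Il6 below the dim level also have Ptgs2 between 5.30 and 5.94, and the other 5 arrays without IMQ have it between 8.49 and 10.02.

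The response to IMQ in the presence of PA was measured on other arrays than the response in its absence. With both agents against PA, 8 of the 9 genes were called, 4 higher and 4 lower, where 35.3% of all genes were called, 16.8% higher and 18.5% lower. The exception was Ptger4, at -0.06 with a 95% interval of -0.19 to 0.06 (limma adjusted p = 0.446). The same 8 of 9 genes were called with both agents against mock, 4 higher and 4 lower, where 36.5% of all genes were called, 18.4% higher and 18.1% lower.

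Whether PA acted differently with IMQ than without it was tested as an interaction, the PA change seen with IMQ less the PA change seen in its absence. It was called for 5 of the 9 genes, 4 higher and 1 lower, where 13.6% of all genes were called, 6.58% higher and 7.01% lower. The largest called difference was that of Tbxas1, at -0.72 ± 0.07 (log2, limma adjusted p = 2.74e-06), where PA lowered the gene by 0.70 with IMQ and the difference was 0.01 without it. Ptger4 (0.47 ± 0.08, limma adjusted p = 0.000788), Pla2g4a (0.34 ± 0.07, limma adjusted p = 0.00556) and Ptger2 (0.32 ± 0.09, limma adjusted p = 0.0286) were called in the other direction. Alox5ap completed the set at 0.26 ± 0.06 (limma adjusted p = 0.00531). Without the 5 arrays with raised Il6 only Tbxas1 was still called (-0.67, limma adjusted p = 0.00345), and the others kept their direction at 0.36, 0.32, 0.31 and 0.24, in the order Ptger4, Pla2g4a, Ptger2 and Alox5ap, with adjusted p between 0.0964 and 0.24. That comparison rests on 1 mock array. The call of Ptger2 was also lost when any of 7 single arrays was left out (adjusted p from 0.0504 to 0.0623). Ltc4s, with -0.29 ± 0.11, was not called (limma adjusted p = 0.0861) but was under 4 alternatives (adjusted p from 0.0265 to 0.0466), nor was Ptges, with 0.45 ± 0.25 (limma adjusted p = 0.280), and Ptgs2 had an interval of -1.94 to 3.40.

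**Figure D4:**
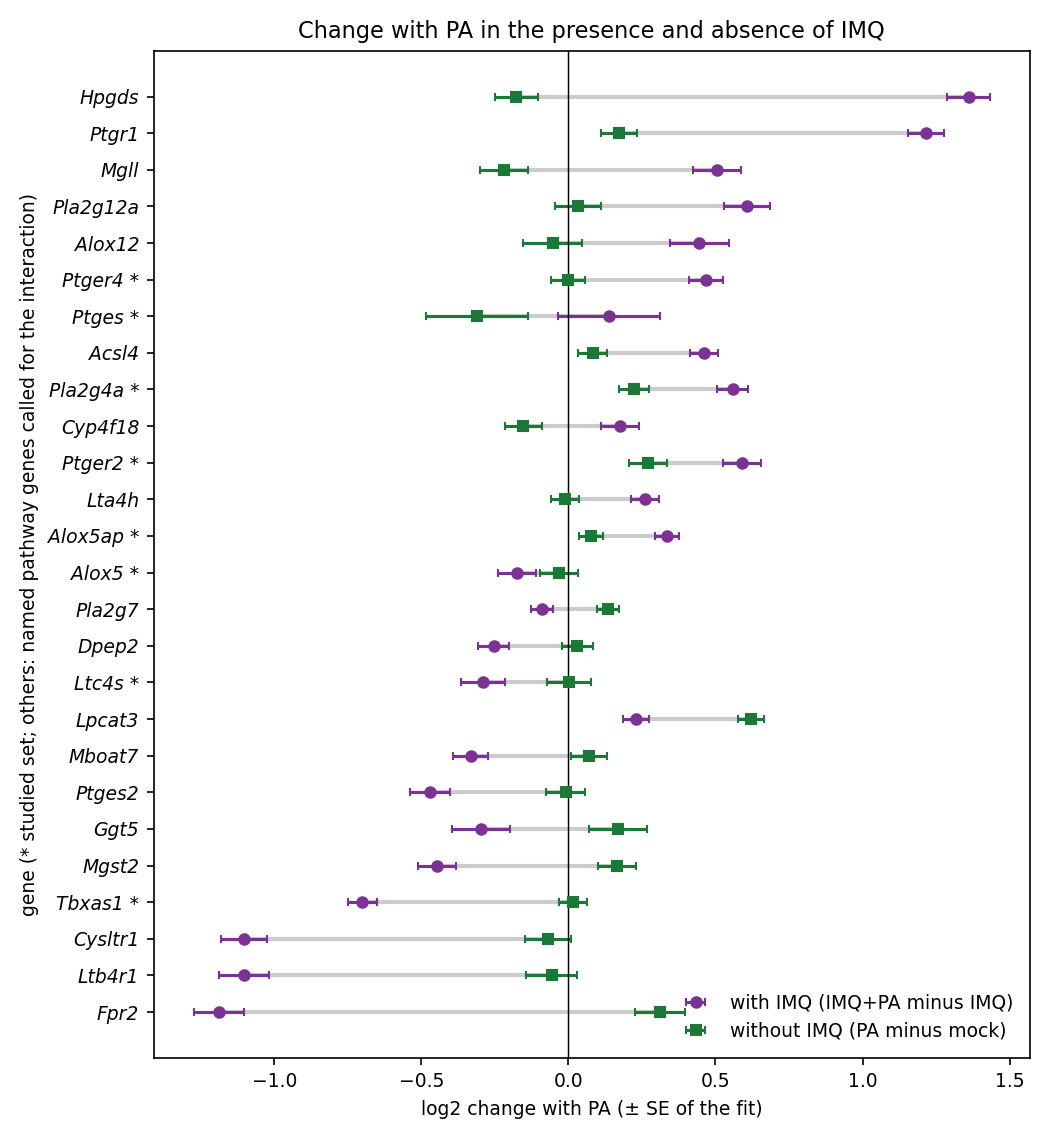
Log2 change with PA (horizontal axis) for 8 measured members, marked by an asterisk, and for 18 of the 20 other pathway genes called for the interaction, those named by size within their lists, with circles for the change with IMQ, squares for the change without it, bars for the standard error of the fit and a grey line joining the pair. The circles lie far left of the squares for Tbxas1, Cysltr1, Ltb4r1 and Fpr2 and far right of them for Hpgds and Ptgr1.

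Other genes of the pathway were taken from lists by role, 61 of 68 genes being measured, and 13 of the 61 were dim in all groups. With IMQ, 13 were called higher and 20 lower than in mock cells, which is 21.3% and 32.8% of the 61, where 17% and 17.9% of all genes were. The median size of the change was 0.27 over the 61 genes and 0.16 over all genes. In arachidonate release, 4 of 23 rose and 5 fell, shares close to those of all genes, among the 5 Daglb and Mgll, which make and break the endocannabinoid that can also feed arachidonic acid to cyclooxygenases, at -3.84 and -3.25 (log2). Acsl4, which activates arachidonic acid for storage in phospholipids, rose by 0.87. Of 7 terminal synthases, Ptges2 rose by 0.75 and 3 fell, with Hpgds, the hematopoietic prostaglandin D synthase, at -2.67. The prostaglandin exporter Abcc4 rose by 0.87, and the prostacyclin receptor Ptgir fell by 0.70. In leukotriene synthesis and export, 1 of 9 rose (Abcc1, an exporter of leukotriene C4, by 1.16) and 6 fell, with Mgst3 at -1.76 and Dpep2 at -1.24. Lipoxygenases other than Alox5 stayed near the dim level, where Alox12, Alox8 and Alox15 were called higher, each from a mock level below it. The rise was 0.45 ± 0.10 for Alox12 and 0.25 ± 0.07 for Alox15. Alox8 was higher by 0.35, and by 0.19 without the arrays with raised Il6, where it was not called (limma adjusted p = 0.404). Its call was also lost without mock replicate 1 or 3 or IMQ replicate 3. Among receptors, Fpr2, which binds formyl peptides and lipoxin, rose by 2.39 and the leukotriene receptor Cysltr1 fell by 0.72. The EP3 receptor gene Ptger3 fell by 0.76 ± 0.11, to below the dim level.

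With PA added to IMQ, 11 of the 61 genes were higher and 13 lower than with IMQ alone, or 18.0% and 21.3%, where 11.6% and 9.44% of all genes were. Hpgds read 6.56, 6.57, 6.53 and 6.59 with both agents, against 5.34, 5.01, 5.39 and 5.05 with IMQ, a change of 1.36 ± 0.07 (log2, limma adjusted p = 1.47e-09). It stayed below PA alone, which read 7.66 to 7.73, and below mock. Ptgr1, a reductase that inactivates prostaglandins and leukotriene B4, rose by 1.22 relative to IMQ. The leukotriene B4 receptor gene Ltb4r1 and Cysltr1 fell by 1.10 each, and Fpr2 by 1.19. With Cmklr1 (-0.57), 4 of the 6 measured genes in the list of leukotriene and lipoxin receptors were lower and 0 higher. Markers of neutrophils, which express Fpr2 and Ltb4r1, summed to 9.14 to 9.25 with both agents and 9.73 to 9.79 with IMQ (log2). The sums were 9.19 to 9.21 with PA and 9.36 to 9.40 in mock cells. Of the 10 markers, 1 rose with PA added to IMQ, S100a8 by 0.26, and 2 fell, Csf3r by 1.85 and Camp by 0.60. Ly6g, Mpo, Camp and Ltf lay below the dim level in every group. Of the 10 markers of macrophages and monocytes, 3 rose and 7 fell in this comparison, with Mrc1 at 1.05 and Fcgr1 at -0.89. The part of any of these cells in the receptors' fall was not tested. The interaction was called for 20 pathway genes, 8 higher and 12 lower, or 13.1% and 19.7%, where 6.58% and 7.01% of all genes were, with 1.54 for Hpgds, 1.04 for Ptgr1 and -1.50 for Fpr2. With PA alone 2 of 61 were called, both higher than mock, where 1.05% of all genes were higher: Lpcat3, which puts arachidonic acid into phospholipids, by 0.62 and Abcc1 by 0.25. The call of Abcc1 was lost without the arrays with raised Il6 (0.27, limma adjusted p = 0.419), without mock replicate 2 or 4 or PA replicate 3 or 4, with only the arrays compared and with repeated quantile normalisation.

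**Figure D5:**
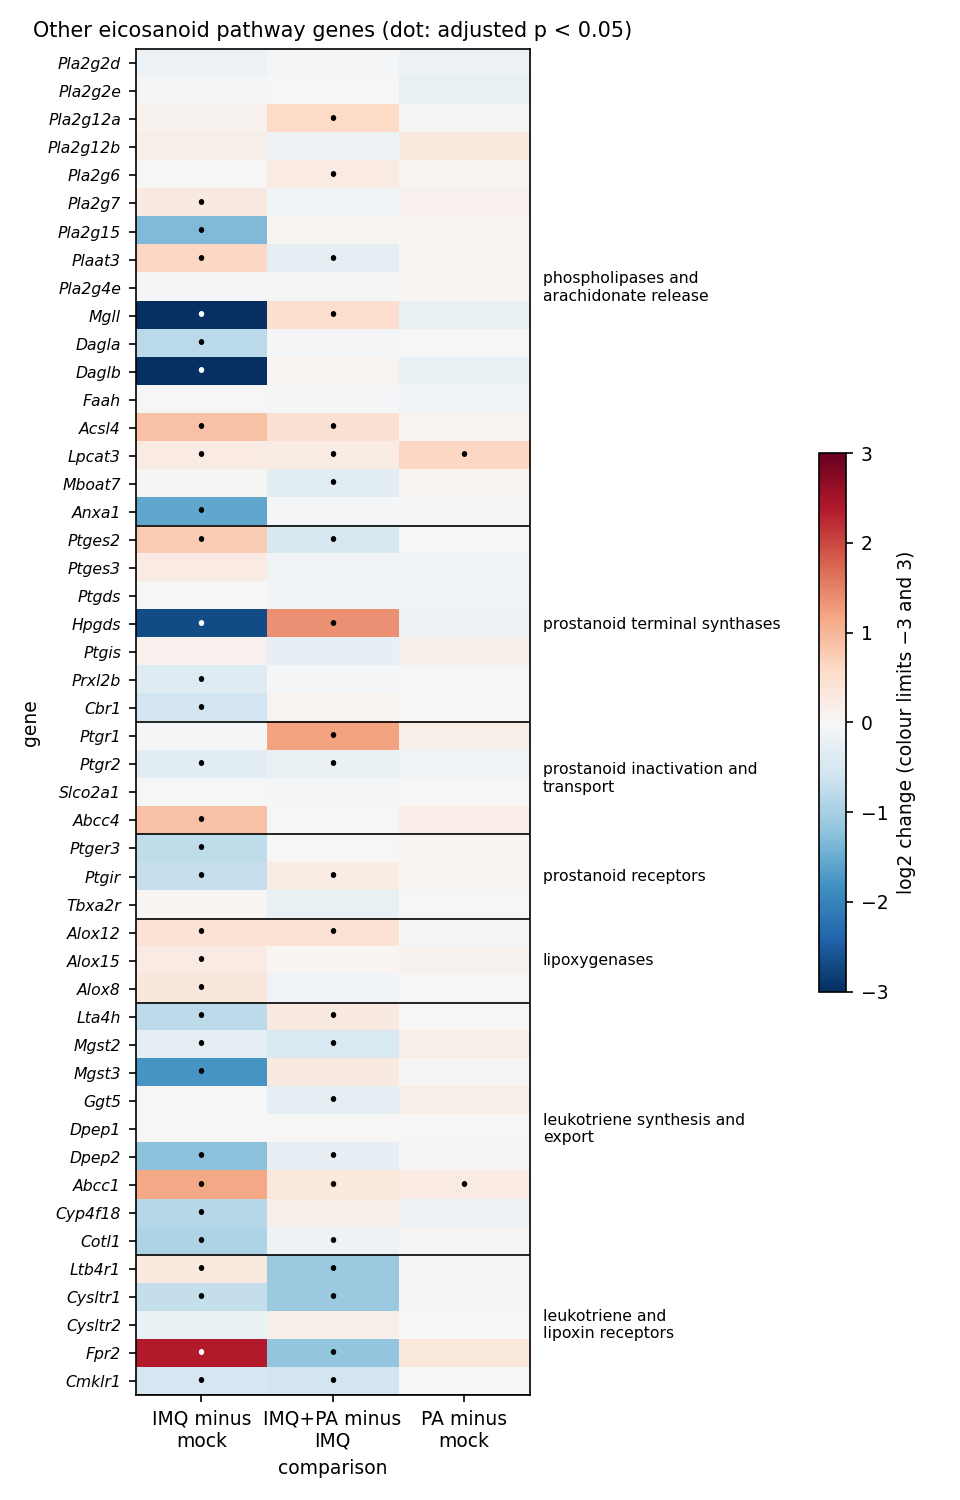
Log2 change, as colour limited to -3 and 3, of the 48 other pathway genes that were not dim in all groups (rows, by list) for IMQ minus mock, IMQ+PA minus IMQ and PA minus mock (columns), with a dot where the adjusted p was under 0.05. Daglb, Mgll and Hpgds are the darkest blue cells for IMQ, Fpr2 is the darkest red there and blue with PA added, and 2 genes carry a dot for PA alone.

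The genes whose values followed each of 3 members most closely over the 16 arrays were taken from genes above the dim level in at least 1 group. The arrays fall into those with and those without IMQ, which sets most of any correlation, so these are descriptions. For Ptgs2 they were Il6 (Pearson r = 0.994), Cxcl3 (0.989) and Il1a (0.986). For Ptges they were Ccl4 (0.997), Slfn4 (0.996) and Nfkbiz (0.996). For Alox5 they were Lgmn, Lrp1 and Idh1, each at 0.998.

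Markers of other cells that express these genes were read beside them. Of the markers of mast cells, basophils and eosinophils, 8 of 12 lay below the dim level in every group (Cpa3, Mcpt8, Mcpt4, Cma1, Tpsab1, Tpsb2, Fcer1a and Ms4a2). Their log2 summed level was 7.94 to 8.17 with both agents, 7.82 to 7.99 with IMQ, 8.55 to 8.62 with PA and 8.71 to 8.77 in mock cells. That sum was lower with IMQ, like Alox5 and Ltc4s, but over the 12 genes 2 rose and 2 fell against mock, with a median of 0.01. Siglecf fell by 2.57, to a mean of 5.36 against 7.93 in mock cells. The eosinophil granule genes Prg2 and Epx rose by 0.45 and 0.37, both from mock levels below the dim level. Their part in the fall of Alox5 and Ltc4s was not tested. Markers of macrophages and monocytes summed to 14.22 to 14.27 with both agents, 14.40 to 14.44 with IMQ, 13.94 to 13.98 with PA and 13.99 to 14.07 in mock cells. With IMQ 5 of the 10 rose, among them Marco at 3.04 and Cd14 at 1.84, and 5 fell, among them Mrc1 at -3.62 and Mertk at -2.08. Such a sum is set mostly by its brightest genes. The part of these cells in the changes of the members was not tested. Platelet markers, which matter for thromboxane synthase, summed to 9.77 to 9.93 with both agents, 10.01 to 10.07 with IMQ, 9.77 to 9.91 with PA and 9.63 to 9.67 in mock cells. With IMQ 2 of these 4 genes rose (Pf4 by 0.51 and Itga2b by 0.32) and Ppbp fell by 0.63, while Tbxas1 fell, and their part in it was not tested.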

How the data were processed

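RNA from 16 samples of mouse dendritic cells (200 ng each) was hybridised to 1-colour Affymetrix whole-transcript arrays, per the labels' protocols. The authors deposited log2 values, which the submitters' processing notes credit to RMA and affy, with no version given in the sources used here. RMA corrects background, equalises arrays by quantiles and summarises probes, which compresses differences near background. Precision is limited by the number of arrays.

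Of 41345 probe sets, 23521 carried 1 gene symbol, 1814 several and 16010 none. The last 2 kinds were left out. Through gene numbers 23328 were matched to RefSeq (GRCm38.p6) and 0 symbols needed an update. For 1082 genes with several probe sets the one with the highest mean was used, giving 22180 genes. Means of the 4 groups were estimated from all arrays together with limma 3.58.1 (lmFit and eBayes, R 4.3.3), and p-values were adjusted by Benjamini-Hochberg over all genes. A gene was called at an adjusted p under 0.05, with no limit on size, and all tests were two-sided. The steps were tested on simulated data with known changes, with noise drawn independently for each gene. Patterns shared by arrays, such as the raised Il6, were not simulated, so the rates that follow may not hold for these data. False calls made up 6.3% of calls for PA against mock and 7.2% for the interaction. Changes of 0.5 (log2) were recovered in 70.15% and 58.21% of the genes given them, in the same order, so smaller ones can be missed. Where 1 of 2 groups compared lay below the dim level of 4.93, this is said beside the called change, whose size may be compressed.

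The members and lists were chosen with earlier results of these data known. Pathway genes were named from each list by size of the called change, up to 3 in each direction and comparison. For like patterns, the 3 genes with the highest correlation were taken. Replicate numbers are shared between groups, but deviations of same-numbered arrays correlated at -0.12 to 0.17 in 24 pairs, over 0.1 in 4 of them, so the numbers were not taken as pairing. Alternatives were repeated quantile normalisation, equal array medians, a filter on dim genes, a trended and robust prior, array weights and the mean of probe sets. Others were the replicate block, only the arrays compared, leaving out each array, and leaving out arrays without IMQ that had raised Il6.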

Additional observations from a re-analysis of the deposited data

Results flagged for a closer look

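In groups of 4 arrays, a stray array was one whose distance to its nearest neighbour, as a share of the group's range, exceeded Dixon's 95% critical value. Of 80 groups checked, 5 held one, and chance gives about 1 in 20. They were the mock array of Ptgs2 at 5.30 and of Il6 at 4.32, which were the same array, the array of IMQ with PA for Alox5 at 5.12, the IMQ array of Ptger2 at 8.30 and the PA array of Fpr2 at 8.39.

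The PA change differed with and without IMQ by the interaction test for 5 members and 20 other pathway genes, of which 18 are named by size within their lists. Among the members the difference, on the log2 scale, was 0.34 for Pla2g4a, 0.26 for Alox5ap, -0.72 for Tbxas1, 0.32 for Ptger2 and 0.47 for Ptger4. In arachidonate handling it was 0.72 for Mgll, 0.58 for Pla2g12a, 0.38 for Acsl4, -0.40 for Mboat7, -0.39 for Lpcat3 and -0.22 for Pla2g7. Among prostanoid enzymes it was 1.54 for Hpgds, -0.46 for Ptges2 and 1.04 for Ptgr1. Among lipoxygenase and leukotriene genes it was 0.50 for Alox12, 0.33 for Cyp4f18, 0.27 for Lta4h, -0.61 for Mgst2, -0.46 for Ggt5 and -0.28 for Dpep2. Among the receptors it was -1.50 for Fpr2, -1.05 for Ltb4r1 and -1.03 for Cysltr1. Without the arrays with raised Il6, 9 of the 18 were still called and 9 were not (adjusted p from 0.0583 to 0.266), namely Pla2g12a, Acsl4, Mboat7, Pla2g7, Ptges2, Cyp4f18, Lta4h, Ggt5 and Dpep2. The call was also lost when any of 7 single arrays was left out for Alox12, any of 10 for Ggt5 and any of 3 for Cyp4f18. Alox12 lay below the dim level in PA and mock cells, and Ggt5 in cells with both agents, so their values are less certain.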

How the results depend on the processing

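Of 37 called differences among the members, 32 were called under every alternative run, 5 lost the call under at least 1, and 0 reversed. Those 5 were Pla2g4a for PA against mock, and Pla2g4a, Alox5ap, Ptger2 and Ptger4 for the interaction. For PA against mock the members called numbered 1, against 0 with repeated quantile normalisation, with equal array medians, without the arrays with raised Il6 and with only the arrays compared, and 2 with the dim filter, the trended and robust prior or array weights (0 to 2 with single arrays left out). The gain was Ptger2. Calls were also gained for the interaction of Ltc4s (quantile normalisation, dim filter, trended and robust prior, without mock replicate 3), and with PA added to IMQ for Alox5 (dim filter, without IMQ replicate 2) and Ptgs2 (only the arrays compared, without the arrays with raised Il6). For the interaction 5 members became 1 without the arrays with raised Il6, where fewer arrays were fitted. Alox5ap lost its interaction call with the mean of its probe sets (0.20, adjusted p = 0.0717), and Ptger2 with equal medians (0.33, adjusted p = 0.0668).

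All reversals were among differences that were not called, and the cause was not tested. Against mock, PA gave -0.0561 for Ltc4s and -0.0281 for Tbxas1 with quantile normalisation, 0.0169 for Ptger4 with equal medians and -0.00091 for Alox5ap with the mean of probe sets. Without the arrays with raised Il6 it gave 0.58 for Ptgs2, -0.0350 for Ltc4s, -0.0301 for Tbxas1 and 0.11 for Ptger4, and the interaction of Ptgs2 was -0.0102. With single arrays left out, the PA difference ranged from -1.03 to 0.48 for Ptgs2, -0.0331 to 0.0623 for Ltc4s, -0.0118 to 0.0365 for Tbxas1 and -0.0237 to 0.0167 for Ptger4. Over all genes, calls for PA against mock numbered 331, against 531 with the dim filter, 737 with the trended and robust prior, 150 with only the arrays compared, 15 without the arrays with raised Il6 and 170 to 346 with single arrays left out. With PA added to IMQ, 2583 genes were higher and 2093 lower, against 2304 and 2460 with quantile normalisation and 2643 and 1559 with equal medians. Interaction calls numbered 3015, against 1200 without the arrays with raised Il6. With the replicate number as a block, Pla2g4a lost its call for PA against mock (0.22, adjusted p = 0.0693), Ptger2 gained one (0.27, adjusted p = 0.0482), and the members called in each comparison kept their number. Of 64 named differences of other pathway genes, 48 were called under every alternative, 16 lost a call under at least 1 and 0 reversed. These 64 cover IMQ against mock, PA against mock, PA added to IMQ and the interaction. Named differences of both agents against PA or mock were not run under the alternatives. Signal near the dim level limits Alox5 with IMQ and the other lipoxygenases.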

Other observations

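Against PA, cells with both agents had Daglb at -3.57, Mgll at -2.52 and Anxa1, a protein known to restrain phospholipase A2, at -1.52 on the log2 scale. Acsl4 was higher by 1.25 and Pla2g12a, a secreted phospholipase, by 0.67. All 5 were named from the genes called by limma, so their calls follow from that choice. Of the 23 genes of arachidonate release, 3 were called higher and 9 lower in this comparison. Over all genes 16.8% were higher and 18.5% lower.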
